A study of Mus musculus with 6 samples.

Results

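The 8 genes described here encode the factors that assemble on the promoters of MHC class II genes. They are Ciita, Rfx5, Rfxap, Rfxank, Nfya, Nfyb, Nfyc and Creb1. They were chosen by symbol and are 8 of the 24499 genes in the count table. All 8 passed the filter on low counts and are among the 13296 genes tested. RNA was measured in induced germinal center B cells (iGCBs), which are naïve splenic B cells of mice grown on feeder cells until they resemble germinal center B cells. The feeders, 40LB, are BALB/c 3T3 fibroblasts that carry CD40L and BAFF, and were irradiated with 120 Gy. Cultures received 1 ng/ml IL-4 and were sorted on day 3 for YFP. The cKO group was Eif3e fl/fl with Cγ1Cre and a Rosa26 YFP reporter behind a stop cassette. The other group is labelled only as control. Where the study compares spleens and lymph nodes of mice at set ages, it describes its controls as Cγ1Cre with the same reporter. In its survival cohort, mice with Eif3e fl/+ or Eif3e fl/fl were counted as controls besides Cγ1Cre mice. The genotype is not repeated for these libraries. The control cells were sorted for YFP like those of cKO, and YFP stands for the action of Cγ1Cre in both groups. Cγ1Cre depends on germline transcription at the Ig γ1 locus and deletes in activated B cells. The study reports that eIF3e protein of cKO B cells fell over the days of this culture. It also reports some deletion in the spleen of young mice, and deletion before the culture was not tested here. Each group had 3 libraries, each from B cells of an individual mouse on a C57BL/6J background. Ages were not given.

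MHC class II molecules present peptides to CD4+ T cells, and B cells express them constitutively. Their promoters share a short module upstream of the start. The X box binds RFX, a complex of RFX5, RFXAP and RFXANK, and the neighbouring X2 box binds CREB. The Y box binds NF-Y, a complex of NF-YA, NF-YB and NF-YC, in which NF-YB and NF-YC form the histone-fold dimer and NF-YA gives contact with the CCAAT letters. CIITA binds no DNA itself. It docks on the assembled complex and recruits coactivators, and loss of CIITA or of any RFX subunit abolishes class II expression in human bare lymphocyte syndrome.

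The letters that these factors read are shown here for 7 of the 8 class II genes with a promoter in the RefSeq table of GRCm38.p6. H2-DMa, the other one, has 2 promoters in the table, one with an RFX half-site and the other with an NF-Y box, and is not printed. Promoters were taken as 250 bases before to 50 bases after each start. Capitals mark an RFX half-site (GCAAC), a pair of overlapping CREB half-sites (TGACG and CGTCA) where present, and the NF-Y box in its reverse orientation (ATTGG). Each stretch reads 5′ to 3′ on the strand of the gene and lies on chromosome 17.
H2-Aa, chr17:34287862-34287909, minus strand: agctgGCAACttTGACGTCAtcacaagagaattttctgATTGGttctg
H2-Eb1, chr17:34305771-34305817, plus strand: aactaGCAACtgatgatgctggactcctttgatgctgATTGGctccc
H2-Eb2, chr17:34325538-34325584, plus strand: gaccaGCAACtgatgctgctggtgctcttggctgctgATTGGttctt
H2-Oa, chr17:34092298-34092345, plus strand: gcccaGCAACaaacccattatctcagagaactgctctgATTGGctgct
H2-Ob, chr17:34238813-34238857, plus strand: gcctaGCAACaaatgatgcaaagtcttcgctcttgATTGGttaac
H2-DMb1, chr17:34153092-34153139, plus strand: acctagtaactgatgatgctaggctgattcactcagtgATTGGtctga
H2-DMb2, chr17:34145121-34145168, plus strand: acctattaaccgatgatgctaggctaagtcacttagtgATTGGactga

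In H2-Aa, H2-Eb1, H2-Eb2, H2-Oa and H2-Ob the RFX half-site preceded the NF-Y box by 30 to 33 bases from start to start. The box began between 43 bases (H2-Oa) and 100 bases (H2-Eb2) before the transcription start. The stretches of H2-DMb1 and H2-DMb2 are aligned by ATTGG and hold no exact GCAAC. A search on both strands counted CCAAT or ATTGG as an NF-Y box, GCAAC or GTTGC as an RFX half-site and TGACG or CGTCA as a CREB half-site. The NF-Y box was in 8 of 9 promoters of 8 class II genes, against 37.4% of all 32851 promoters. The RFX half-site was in 6 of the 9, against 35.2%, and the CREB half-site in 1 of the 9 (11.1%), that of H2-Aa, against 20.8%. An RFX half-site followed by an NF-Y box at 28 to 38 bases was in 5 of the 9 (55.6%), against 0.487% of all promoters. A match of letters is a description and not a site. H2-Ab1, Cd74, Ciita and Rfxap had no entry.

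Totals ranged from 39079582 to 45504570 estimated counts per library, so that the floor of 3 counts lay between 0.0659 and 0.0768 CPM (counts scaled to the size of the library). Floors and intervals cover counting error and spread between libraries only. Eif3e, the targeted gene, stood at 150 to 173 CPM in cKO and 392 to 424 CPM in control libraries. Its residual counts cannot be assigned to undeleted cells or to RNA of the deleted allele. All 5 B cell markers were detected, with summed levels of 3532 to 3604 CPM in cKO and 3313 to 3551 CPM in control, while the 5 T cell markers summed to at most 0.355 CPM and Cd3e was at 0 throughout. The 3 germinal center markers summed to 236 to 243 CPM in cKO and 264 to 309 CPM in control, and the 5 plasma cell markers to 646 to 788 and 831 to 852 CPM. Summed fibroblast markers were at 99.6 to 125 CPM in cKO and 77.0 to 142 CPM in control, with 3 of 8 under 1 CPM in every library. Of these markers, Fn1 was called higher in cKO (35.7 to 46.8 CPM, against 13.6 to 22.4 CPM in control) and none was called lower. The part of feeder RNA in the values of the regulators was not tested. Summed dendritic cell and macrophage markers were at 21.6 to 34.6 CPM in cKO and 38.3 to 40.1 CPM in control, with 4 of 6 under 1 CPM in every library. Xist had 53272 to 70912 counts in cKO 2 and control 1 and 2 and at most 16 in the others, so both groups mixed sexes.

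Creb1 and Nfyb rose in cKO, Rfxank fell, and Ciita, Rfx5, Rfxap, Nfya and Nfyc did not pass the test. Of the 8 genes, 3 (37.5%) were called at an adjusted p under 0.05 (edgeR quasi-likelihood test, Benjamini-Hochberg over all genes tested), while 48.6% of all genes tested were called, 24.1% higher and 24.5% lower. The libraries of the groups did not overlap for 5 of the 8 (62.5%), against 58.7% of all genes tested. The median log2 fold change of the 8 was 0.07, against -0.00 over all genes. The shares of the regulators were thus near or below the background. The 5 genes that were not called had 95% intervals that lay between 0.808-fold and 1.22-fold. In bulk RNA, fewer cells with a transcript and less transcript per cell cannot be told apart.

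**Figure D1:**
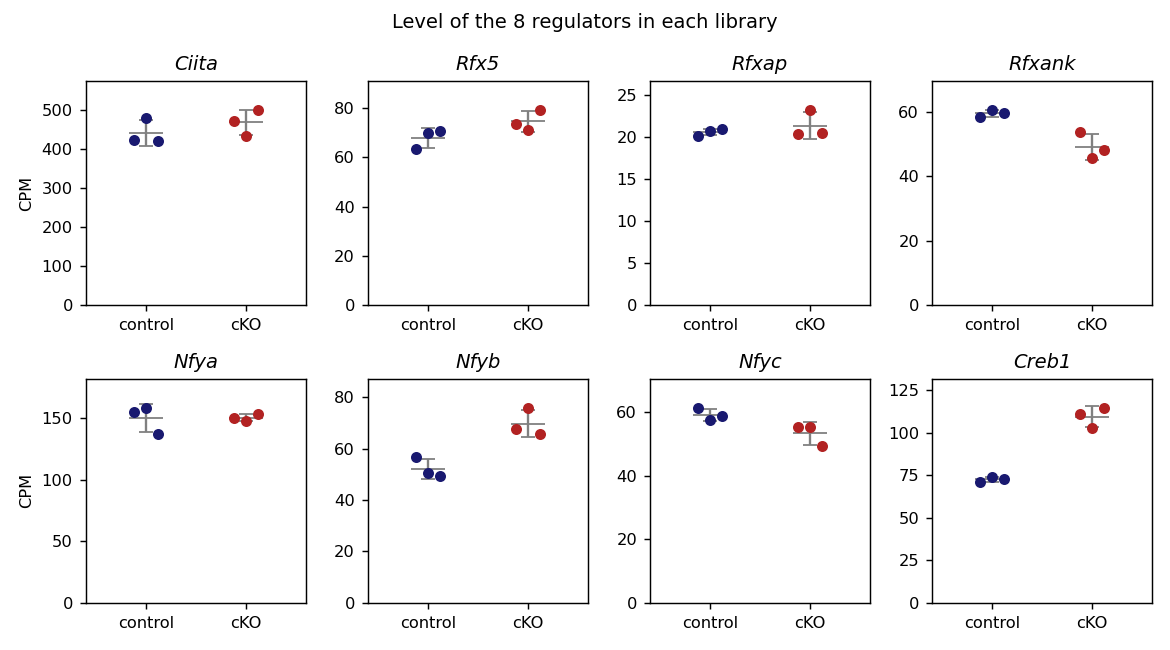
Level of each of the 8 regulators, in CPM, in the 3 control (dark) and 3 cKO (red) libraries. Points are libraries, the grey bar is the mean and its whiskers are the SD. Creb1 and Nfyb sit higher and Rfxank lower in all 3 cKO libraries, while the groups overlap for Ciita, Rfxap and Nfya.

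Ciita, the class II transactivator (chromosome 16, 10480059-10528418, plus strand, GRCm38), was the most abundant of the 8. It had 472, 435 and 500 CPM in cKO 1 to 3 and 424, 479 and 420 CPM in control 1 to 3. The groups overlapped, with control 2 above cKO 1 and 2. The log2 fold change was 0.09 ± 0.069 (SE), with a 95% interval of -0.07 to 0.24 and an adjusted p of 0.321 by the edgeR quasi-likelihood test. With single libraries left out it ranged from 0.0404 (without cKO 3) to 0.145 (without control 2) and was not called. The exact permutation test over libraries gave p = 0.3, where 0.1 is the smallest that 3 against 3 can give. Among all genes tested, 86.1% had a larger absolute log2 fold change. Ciita ranked 335 of 13296 by mean CPM, within the top 2.52%. Ciita overlaps Dexi on the opposite strand in GENCODE M21, so their reads may not be fully separated. Dexi had a log2 fold change of 0.11 (edgeR adjusted p = 0.236).

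All 10 class II genes listed were called lower in cKO, against 24.5% of all genes tested. Their median log2 fold change was -0.61, beside -0.00 over all genes. In the same libraries the interval of Ciita included 0. The invariant chain gene Cd74, which chaperones class II molecules, had 6388, 6366 and 6597 CPM in cKO and 9685, 9604 and 10266 CPM in control (log2 fold change -0.61). H2-Aa, the I-A α chain, stood at 1547, 1562 and 1679 CPM in cKO and 2390, 2458 and 2418 CPM in control (log2 fold change -0.60). H2-Ab1, the I-A β chain, fell by 0.64 and H2-Eb1, the I-E β chain, by 0.57 on the log2 scale. Of the peptide editor genes of the DM type, H2-DMa fell by 0.47, H2-DMb1 by 0.49 and H2-DMb2 by 0.40, where the last pair are close copies whose reads may be split between them. The largest differences among the 10 were at H2-Eb2 (-1.05) and H2-Oa (-0.95), a chain of the DM inhibitor, and its partner H2-Ob stood at -0.63. H2-Eb2, H2-Oa, H2-Ob, H2-Aa and H2-Eb1 are the genes whose half-site and box are printed above, and H2-DMb1 and H2-DMb2, without the exact half-site, were called lower too. The largest adjusted p of the 10 was 0.000249 (edgeR quasi-likelihood test). Of the dendritic cell and macrophage markers, Flt3 was lower in cKO (15.1 to 30.6 CPM, against 36.1 to 38.9 CPM in control) and Adgre1 higher (3.64 to 5.54 CPM, against 0.620 to 2.02 CPM), while Csf1r, Itgax, Lyz2 and Cd209a were at most 0.661 CPM in any library. The part of such cells in the class II values was not tested.

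The ratio of summed class II counts to Ciita counts within a library removes the scaling between libraries. It was 26.8, 29.2 and 26.9 in cKO and 45.4, 40.7 and 48.0 in control. The groups did not overlap, and the difference of the mean log2 ratios was -0.69 (exact permutation p = 0.1, the smallest possible). This and the other ratios were chosen after the values were seen.

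**Figure D2:**
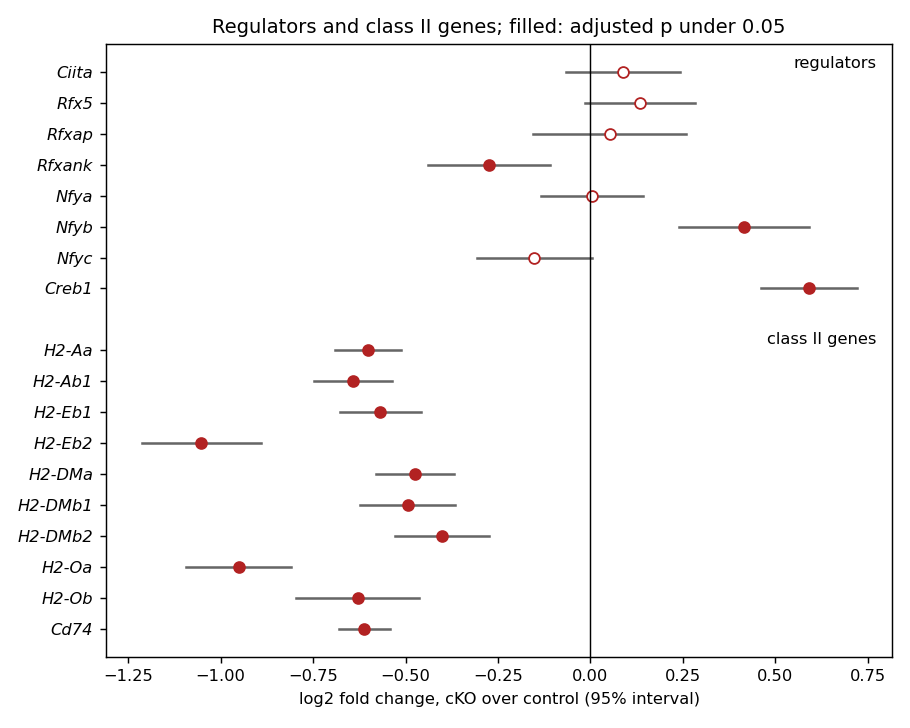
Log2 fold change of cKO over control with its 95% interval for the 8 regulators (top) and the 10 class II genes (bottom). Filled points have an adjusted p under 0.05. All 10 class II genes lie below 0, from -0.40 to -1.05, while the regulators lie on both sides of 0, from -0.27 to 0.59.

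The Ciita gene is known to be transcribed from alternative promoters, of which one is used mainly in dendritic cells, one in B cells and one after interferon-γ. The transcript table held 5 RefSeq transcripts of Ciita, and it gives no promoter names, so none were assigned here. NM_007575, which starts at position 10488279, took 98.0%, 92.7% and 90.9% of Ciita counts in cKO 1 to 3 and 93.9%, 95.7% and 96.3% in control 1 to 3. It was the main transcript in every library, and the groups overlapped. NM_001243761, which starts downstream at 10489781, had 7, 895 and 1528 counts in cKO and 667, 299 and 189 in control. Its counts spread widely within each group and overlapped between them. NM_001243760, which starts upstream at 10480059, took 1.68% to 2.27% of Ciita counts in cKO and 2.50% to 2.59% in control. NM_001302619, which starts at 10480164, took 0.208% to 0.501% in cKO and 0.0926% to 0.154% in control. The groups did not overlap for either of these minor transcripts, with NM_001243760 lower and NM_001302619 higher in cKO. The exact permutation p of each share was 0.1, the smallest possible. NM_001302619 had only 16 to 98 counts per library, and the share of all transcripts without overlap was not computed. By the edgeR diffSpliceDGE test of single transcripts, the unadjusted p was 0.665 for NM_001243760 and 0.415 for NM_001302619. NM_001302618 was at 0 in all libraries. The test of transcript use (edgeR diffSpliceDGE, Simes p per gene, Benjamini-Hochberg over 3032 genes) called 1.35% of genes, and Ciita was not among them (adjusted p = 1.00, unadjusted p = 0.831).

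The genes most like Ciita over the 6 libraries, by Pearson's r of log2 CPM among 8513 genes with a mean of at least 10 CPM, were Epg5 (r = 0.995), Ric8b (0.951), Qpctl (0.940), L3mbtl3 (0.938) and Ppm1k (0.935). Like Ciita, each was highest in cKO 3 and none was called between the groups. The 6 points share their libraries with Ciita, and a high r is easily found among so many genes.

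Of the 3 RFX subunits, Rfxank was called lower and the others were not called. Rfxank, the ankyrin-repeat subunit (chromosome 8, 70130794-70139154, minus strand), had 53.6, 45.7 and 48.1 CPM in cKO and 58.3, 60.4 and 59.6 CPM in control. All 3 cKO libraries were below all 3 controls. The log2 fold change was -0.27 ± 0.0738 (SE), with a 95% interval of -0.44 to -0.11 and an adjusted p of 0.011 (edgeR quasi-likelihood test). The exact permutation p was 0.1, the smallest possible. Rfxank overlaps Nr2c2ap on the opposite strand over 2417 bases in GENCODE M21. Nr2c2ap rose in the same libraries, from 11.6 ± 0.901 CPM (SD, n = 3) in control to 24.8 ± 2.72 CPM (SD, n = 3) in cKO (log2 fold change 1.09, edgeR adjusted p = 3.6e-05). The strand setting of the counting is not given in the sources used here, and how reads of the shared stretch were divided was not tested.

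Rfx5 (chromosome 3, 94954075-94961561, plus strand) encodes the subunit with the winged-helix DNA-binding domain. It had 73.5, 71.2 and 79.2 CPM in cKO and 63.3, 70.0 and 70.6 CPM in control. The lowest cKO library was just above the highest control. The log2 fold change of 0.13, with a 95% interval of -0.01 to 0.28, did not pass the test (adjusted p = 0.122 by edgeR). Rfxap (chromosome 3, 54803115-54807791, minus strand), the RFX-associated subunit, had 20.4, 23.2 and 20.5 CPM in cKO and 20.2, 20.8 and 21.0 CPM in control. Its groups overlapped (log2 fold change 0.05, 95% interval -0.16 to 0.26, edgeR adjusted p = 0.678).

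Within libraries, 1.37, 1.56 and 1.65 counts of Rfx5 were found per count of Rfxank in cKO and 1.09, 1.16 and 1.18 in control. The groups did not overlap, with a difference of 0.41 on the log2 scale. Rfxap per Rfxank stood at 0.381, 0.508 and 0.426 in cKO and at 0.347, 0.344 and 0.351 in control, again without overlap. Rfx5 per Rfxap overlapped between groups (3.07 to 3.86 in cKO, 3.14 to 3.37 in control). The exact permutation p was 0.1 for both ratios to Rfxank, the smallest possible, and 0.5 for Rfx5 per Rfxap.

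Of the 3 NF-Y subunits, Nfyb was called higher and the others were not called. Nfyb (chromosome 10, 82748701-82764144, minus strand) encodes one side of the histone-fold dimer. It had 67.7, 75.8 and 65.7 CPM in cKO and 56.7, 50.5 and 49.5 CPM in control. All 3 cKO libraries were above all 3 controls. The log2 fold change was 0.42 ± 0.0788 (SE), with a 95% interval of 0.24 to 0.59 and an adjusted p of 0.00151 (edgeR quasi-likelihood test). Among all genes tested, 43.0% had a larger absolute change. In the RefSeq table Nfyb lies within the span of Hcfc2, while the search of GENCODE M21 listed no gene that overlaps Nfyb. Hcfc2 had a log2 fold change of 0.17 (edgeR adjusted p = 0.176), and how shared reads were divided was not tested.

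Nfyc (chromosome 4, 120757438-120831572, minus strand), encodes the other side of the dimer. It had 55.3, 55.5 and 49.3 CPM in cKO and 61.4, 57.6 and 58.8 CPM in control. The groups did not overlap, but the log2 fold change of -0.15, with a 95% interval of -0.31 to 0.00, did not pass the test (edgeR adjusted p = 0.10). Nfya (chromosome 17, 48386885-48409906, minus strand), which encodes the subunit that reads CCAAT, had 150, 148 and 153 CPM in cKO and 155, 158 and 137 CPM in control. Its groups overlapped, and its log2 fold change was 0.00 with a 95% interval of -0.13 to 0.14 (edgeR adjusted p = 0.967).

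Nfyb per Nfyc was 1.22, 1.37 and 1.33 in cKO and 0.923, 0.876 and 0.842 in control. All 3 cKO libraries were above all 3 controls in this ratio of counts, which is not corrected for the length of the transcripts. Nfyb per Nfya was 0.429 to 0.513 in cKO and 0.319 to 0.366 in control, without overlap, while Nfya per Nfyc overlapped (2.66 to 3.11 and 2.33 to 2.74). The exact permutation p was 0.1 for both ratios of Nfyb, the smallest possible, and 0.3 for Nfya per Nfyc.

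Creb1 had the largest change of the 8. It encodes CREB, a cAMP-responsive activator of the bZIP class (chromosome 1, 64532645-64604548, plus strand). It had 111, 103 and 115 CPM in cKO and 71.0, 73.9 and 73.0 CPM in control. The groups were well apart, with the lowest cKO library above every control. The log2 fold change was 0.59 ± 0.0579 (SE), with a 95% interval of 0.46 to 0.72 and an adjusted p of 2.3e-05 (edgeR quasi-likelihood test). This is 1.51-fold, with a 95% interval of 1.38 to 1.65, and so at the 1.5-fold cutoff, which the value missed in 4 of 15 alternative settings. Creb1 was the 1 regulator over that cutoff, and 21.0% of all genes tested were called with such a change, 10.4% higher and 10.6% lower. Creb1 per Ciita was 0.235, 0.236 and 0.229 in cKO and 0.167, 0.154 and 0.174 in control, without overlap.

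**Figure D3:**
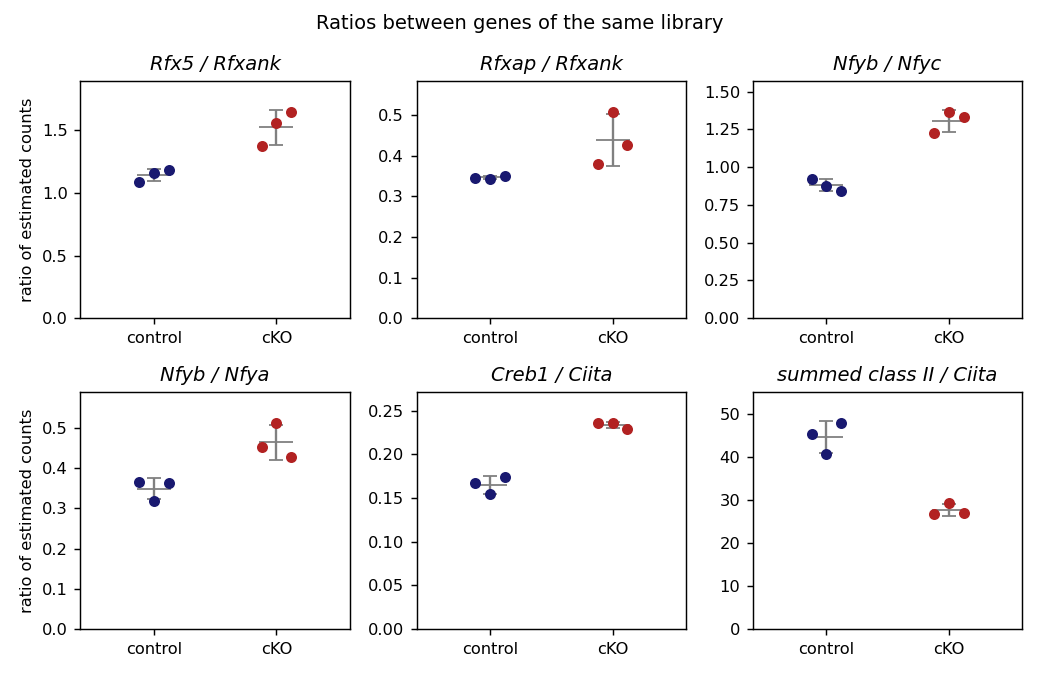
Ratios of estimated counts between genes of the same library in the 3 control (dark) and 3 cKO (red) libraries, with mean and SD in grey. Rfx5 and Rfxap per Rfxank, Nfyb per Nfyc and per Nfya, and Creb1 per Ciita are higher in all cKO libraries, and the summed class II genes per Ciita are lower.

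The transcript table listed 3 transcripts of Creb1. NM_009952 took 57.2%, 44.5% and 36.5% of Creb1 counts in cKO 1 to 3 and between 22.4% (control 2) and 45.0% (control 3) in control. The longer NM_133828 took 41.1%, 45.6% and 58.6% in cKO and 63.5%, 71.3% and 51.2% in control. Control 3 lay within the cKO range for both, so the groups overlapped. Transcript use of Creb1 was not called (adjusted p = 1.00, unadjusted p = 0.269). The same held for Rfxank, Nfya and Nfyc, each with an adjusted p of 1.00, while Rfx5, Rfxap and Nfyb have a single listed transcript. Rfxank divided its counts between NM_001025589 (60.4% to 70.5% in cKO, 57.0% to 64.5% in control) and NM_011266. Nfya NM_010913 took 64.7% to 78.0% in cKO and 74.4% to 90.5% in control. Nfyc NM_008692 took at least 96.2% in every library.

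**Figure D4:**
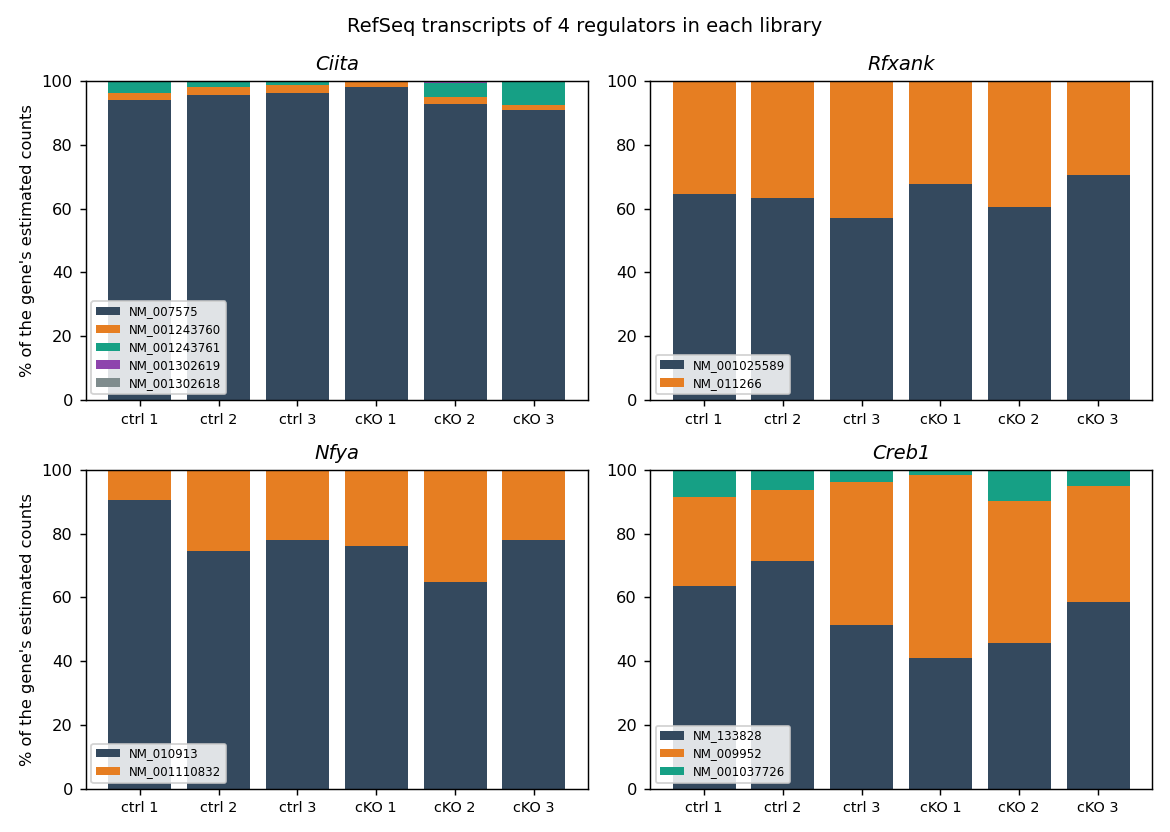
Share of each RefSeq transcript in the estimated counts of Ciita, Rfxank, Nfya and Creb1, in percent, for each library (ctrl, control). The main Ciita transcript takes 90.9% to 98.0% in all 6 libraries, and the shares of the main transcripts of Creb1, Nfya and Rfxank overlap between the groups.

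Per kilobase of transcript (RPKM), the order of levels differed between the groups. In control, Ciita led with 75.0 ± 5.56 RPKM (SD, n = 3), followed by Nfya with 40.6 ± 3.10, Nfyc with 30.7 ± 1.00, Rfxank with 30.5 ± 1.74, Nfyb with 20.4 ± 1.53, Rfx5 with 16.2 ± 0.971, Creb1 with 13.5 ± 0.497 and Rfxap with 9.54 ± 0.185. Nfyc and Rfxank did not differ beyond their spread. In cKO, Ciita had 80.4 ± 6.11 RPKM, Nfya 40.7 ± 0.713, Nfyc 27.6 ± 1.83, Nfyb 27.3 ± 2.10, Rfxank 23.8 ± 1.74, Creb1 21.0 ± 1.52, Rfx5 17.8 ± 0.979 and Rfxap 9.89 ± 0.736. There Nfyb stood before Rfxank and Creb1 before Rfx5, the reverse of control, and Nfyc and Nfyb did not differ beyond their spread. The values and ranks of Creb1 and Rfxank depend on how counts were divided between transcripts of unequal length, 3609 and 1121 bases in the case of Rfxank.

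Over all genes tested, 24.1% were called higher and 24.5% lower. Among the other RFX genes, which encode DNA-binding proteins outside the class II complex, 1 of 4 tested was called higher and 0 lower. It was Rfx7, with 220 to 236 CPM in cKO and 180 to 191 CPM in control (log2 fold change 0.31). Rfx4, Rfx6 and Rfx8 were at 0 in all libraries. Relatives and coactivators of CREB had 3 of 6 called higher and 1 lower. The higher ones were the coactivator genes Crtc2 (0.39) and Crtc3 (0.22), whose products bind CREB in the nucleus, and the acetyltransferase gene Crebbp (0.29). Atf1, which encodes a bZIP factor close to CREB, was called lower at -0.18 (edgeR adjusted p = 0.0219). It lost its call in 4 of 15 alternative settings, with Xist as a covariate (adjusted p = 0.0689) and without cKO 1, control 1 or control 3 (0.0611 to 0.0752).

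Of 7 genes known as targets of CREB, 4 were called higher and 2 lower, with a median log2 fold change of 0.72 against -0.00 over all genes. The shares of all genes tested were 24.1% called higher and 24.5% lower. Fos, an AP-1 subunit, had 323, 338 and 518 CPM in cKO and 82.6, 95.1 and 115 CPM in control (log2 fold change 2.01). Nr4a2, an orphan nuclear receptor, rose by 1.98 and Sik1, a kinase that phosphorylates CREB coactivators, by 1.20. The clock gene Per1 fell by 0.76 and was called lower in all 15 alternative settings. The other gene called lower, the early growth response factor Egr1, was at -0.35 (edgeR adjusted p = 0.0417) and lost its call in 8 of 15 alternative settings, where its adjusted p reached 0.159. These genes also respond to other pathways, whose part was not tested.

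Of 6 cell cycle genes known for NF-Y boxes in their promoters, 5 were called lower and 0 higher, with a median of -0.61. Of all genes tested, 24.5% were called lower and 24.1% higher. Ccnb2 had 56.8, 57.1 and 57.7 CPM in cKO and 131, 130 and 120 CPM in control (log2 fold change -1.15). Ccnb1 fell by 0.69, Cdc25c by 0.63 and Cdk1 by 0.59. All of these act in the G2/M step of the cell cycle. The boxes in the promoters of these genes were not counted separately here. The study reports impaired proliferation of cKO B cells in this culture, and its part in these values was not tested.

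Known activators of Ciita transcription were divided, with 4 of 10 called higher and 4 lower around a median log2 fold change of 0.0139. All genes tested had 24.1% called higher and 24.5% lower. The B cell identity gene Pax5 rose by 0.49 and Irf4 by 0.42. Spi1, which encodes the ETS factor PU.1, had 51.2, 52.8 and 57.0 CPM in cKO and 99.3, 99.3 and 94.9 CPM in control, and fell by 0.87. Among repressors, 3 of 6 were called higher and 1 lower. Hdac2 (0.88), Ezh2 (0.63) and Hdac1 (0.28) encode histone-modifying enzymes and were higher. Prdm1, the Blimp-1 gene that silences Ciita in plasma cells, had 18.0, 16.7 and 19.8 CPM in cKO and 55.7, 37.1 and 26.7 CPM in control, and fell by 1.13. Beside these changes in both directions, Ciita lay within its control range in cKO 1 and 2 and above it in cKO 3. The other plasma cell markers went both ways. Jchain, of the polymeric immunoglobulin, had 5.82 to 9.94 CPM in cKO and 86.2 to 138 CPM in control, and Xbp1, a factor of the secretory programme, fell by 1.10 on the log2 scale. Sdc1, which encodes CD138, rose 3.02-fold. With Prdm1 and Irf4, 3 of the 5 were called lower and 2 higher, and their part in the values of Ciita and its regulators was not tested.

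Cofactors of CIITA were divided as well, with 6 of 13 called higher and 4 lower and a median of 0.13. The background over all genes tested was 24.1% called higher and 24.5% lower. Carm1, an arginine methyltransferase, rose by 0.60 and Cdk7, the kinase of TFIIH, by 0.41. Smarca4, the BRG1 ATPase of SWI/SNF remodellers, fell by 0.40 and the acetyltransferase gene Kat2b by 0.38. Crebbp is on this list and on that of the CREB relatives. The class I branch uses RFX together with NLRC5, the relative of CIITA. Nlrc5 had 86.0, 70.6 and 93.2 CPM in cKO and 39.3, 36.8 and 69.1 CPM in control (log2 fold change 0.78, edgeR adjusted p = 0.0104), and B2m, the class I light chain gene, was at 0.21 (edgeR adjusted p = 0.0499). The lowest cKO library for Nlrc5, cKO 2, and the 2 lowest control libraries were those with Xist counts. The calls among Nlrc5, B2m, H2-K1 and H2-D1 ran from 0 to 4 as single libraries were left out, with 0 without control 1 and 4 without control 3, and H2-K1 and H2-D1 are close copies whose reads may be split.

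**Figure D5:**
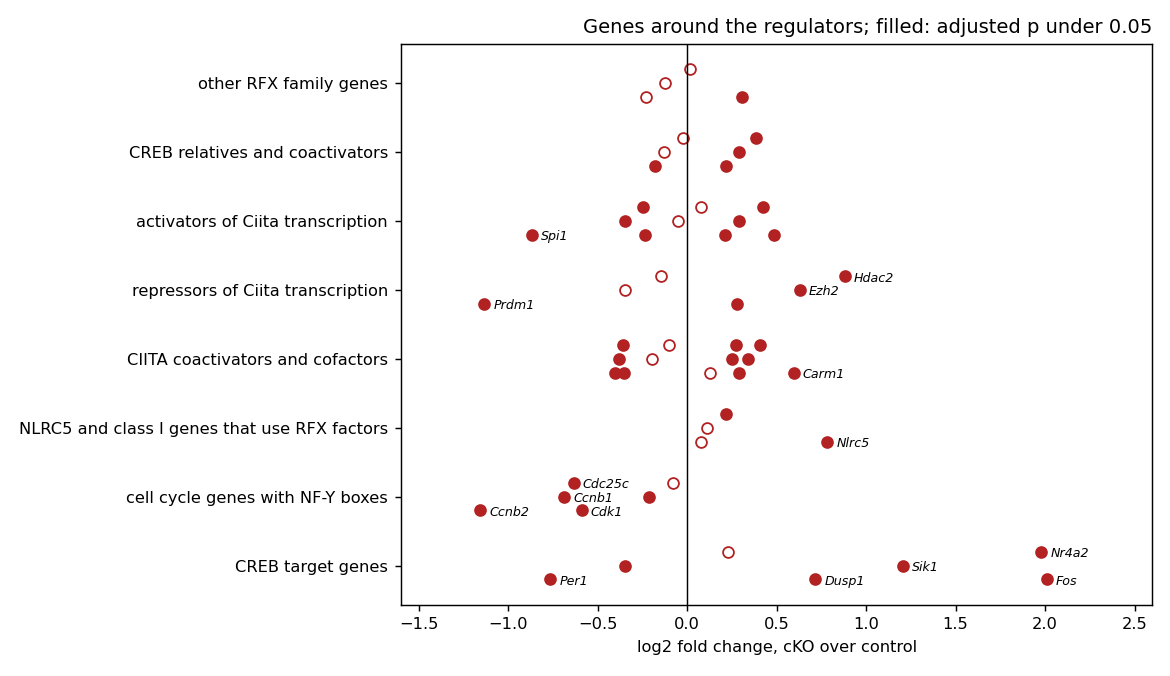
Log2 fold change of cKO over control for the genes of the 8 surrounding lists, 1 row of points per list, with small vertical offsets only to separate points. Filled points have an adjusted p under 0.05, and names mark absolute values over 0.55. CREB target genes reach 2.01 (Fos), and the cell cycle genes lie below 0.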

How the data were processed

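Poly(A) RNA of sorted YFP+ iGCBs was sequenced for 3 cKO and 3 control mice, and samples were grouped by their labels. The authors aligned reads with HISAT2 and quantified them with StringTie (mm10 per the submitters' processing notes), and deposited 1 table of estimated counts for genes and 1 for RefSeq transcripts, written by the prepDE script. The deposited values were whole and not normalized, and totals were 39079582 to 45504570 per library. Read length and strand settings are not given in the sources used here. An estimated count need not equal 1 fragment, so that all estimated counts were also divided by 2 and by 4.

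In R 4.3.3, edgeR 4.0.16 was used with filterByExpr (minimum count 10), TMM factors and the quasi-likelihood test of cKO against control without covariates. P-values were adjusted by Benjamini-Hochberg over all 13296 genes tested, and a call was an adjusted p under 0.05. Intervals are 95% intervals. CPM used TMM-scaled totals. RPKM divided the CPM of each transcript by its GENCODE M21 length (GRCm38) and summed over the gene. Transcript use was tested with diffSpliceDGE, and 35707 of 36026 transcripts were assigned to genes by RefSeq identifiers (GRCm38.p6). Permutation tests were two-sided and exact. DESeq2 1.42.0 was an alternative. The pipeline was tested on simulated data.

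The 8 regulators and the gene lists were chosen with earlier results of these data known. Named genes are the 8 regulators, the class II genes, up to 4 called genes per other list with the largest absolute log2 fold change, the 5 genes most correlated with Ciita, and Eif3e. Nr2c2ap, Dexi, Hcfc2, Xist, single cell type markers and other list members were named after their values were seen. An activator of Ciita on the list is not reported here. The alternatives were other size factors, DESeq2, other filters, divided counts, the replicate number as a block, Xist as a covariate and leaving out each library.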

Additional observations from a re-analysis of the deposited data

How the results depend on the processing

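Each of the 8 regulators kept its side of the threshold under all 15 alternatives, and 476 of 500 alternative values over 36 results kept direction and side or, for counts of genes, stayed within 1.5 times the count given, so that single genes could change side within them. The adjusted p of Rfxank ranged from 0.00537 to 0.0433, that of Nfyb reached at most 0.00831 and that of Creb1 at most 0.00042 (edgeR or DESeq2). The sign turned only for genes that were never called: with single libraries left out, Rfxap ranged from -0.0106 (without cKO replicate 2) to 0.0842, and Nfya from -0.0562 (without control replicate 3, and -0.0103 without cKO replicate 3) to 0.0357. With single libraries left out, Rfx5 ranged from 0.0856 (without control replicate 1) to 0.168, Nfyc from -0.180 to -0.0970 (without cKO replicate 3) and Creb1 from 0.56 to 0.64, and Xist as a covariate gave 0.56. That covariate lowered the CREB relatives called lower (Atf1) to 0 and, like the absence of a filter, the class I branch genes called higher to 1. Total counts only, DESeq2 and no filter left 1 CREB target gene called lower (Per1, without Egr1). Leaving out single libraries gave 0 to 1 CREB relatives called lower (0 without cKO replicate 1, control replicate 1 or control replicate 3), 2 to 4 activators lower (2 without cKO replicate 1), 1 to 2 repressors lower (2 without control replicate 3), 0 to 4 class I branch genes higher and 1 to 2 CREB targets lower. The causes were not tested. The counts divided by 4 were added after the data were seen.

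Libraries of the 2 groups share replicate numbers in the labels. Deviations from the group means correlated at 0.00851, 0.0839 and 0.133 for equal numbers, and cKO replicate 2 correlated best with control replicate 1, so the numbers were not taken to pair the samples. With the number as a replicate block, 6234 genes were called in place of 6468, 6060 of them shared, and Rfxank was at -0.28, Nfyb at 0.42 and Creb1 at 0.59. No value was obtained for transcript use of Nfyc with at least 10 counts in every library, since 1 transcript was left, and the alternative without immunoglobulin genes was not run, since it would have removed 0 rows. With 3 libraries a group, a call depended on the spread of each gene as well as on its fold. The p-values measure spread between mice and cultures together.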
